A study of Mus musculus with 6 samples.

Results

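Nuclear receptors are transcription factors that share a DNA-binding domain with a pair of zinc fingers, and most of them also carry a pocket that can hold a small lipophilic ligand. The genes described here are 10 members of that superfamily, chosen by name for their known roles in pluripotency or in the response to retinoids: the orphan receptors Esrrb, Nr5a2, Nr0b1, Nr6a1, Nr2f1 and Nr2f2 and the retinoid receptors Rara, Rarg, Rxra and Rxrg. The choice was made with earlier results of these data known. All 10 genes were found by symbol among the 55416 genes counted, and 8 of them had enough counts to be tested among 15746 genes. RNA-seq was performed on epiblast-like cells (EpiLCs), formative pluripotent cells obtained from naïve mouse embryonic stem cells (mESCs) after 48 h in N2B27 medium with 1% KSR, a serum replacement, bFGF and Activin A on fibronectin. WT EpiLCs came from 46C mESCs, in which GFP stands in the neural gene Sox1, and KO EpiLCs from 1 clone of that line with a homozygous insertion in the coding sequence of Oct6 (official symbol Pou3f1), with 3 libraries of each genotype. Both groups were kept in the same media, and the methods give the B27 supplement as free of vitamin A, the dietary precursor of retinoic acid.

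Esrrb and Nr5a2 belong to the naïve circuitry of mESCs, where they bind DNA as monomers at an extended half-site and help to maintain Pou5f1, Nanog and other pluripotency genes. Nr0b1 (DAX1) lacks a conventional DNA-binding domain and acts as a corepressor that binds other factors, whereas Nr6a1 (GCNF) represses Pou5f1 as pluripotent cells differentiate. Retinoic acid receptors (RARs, products of Rara, Rarb and Rarg) bind all-trans retinoic acid, form heterodimers with the retinoid X receptors (RXRs, products of Rxra, Rxrb and Rxrg), and typically occupy direct repeats of a hexamer spaced by 5 bases (DR5). Nr2f1 and Nr2f2 (COUP-TFs) are best known from later neural and mesodermal development and can compete for such repeats.

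Promoter sequence of the receptor genes is shown first, searched for the half-site AGGTCA, which is what most of these receptors have in common. The search was by letters alone, and binding was not measured. Promoter windows of 300 bases (250 before a start and 50 from it) were taken from RefSeq (GRCm38.p6) and placed in GRCm39 by exact match, and all 10 genes matched, with 20 windows. A search of both strands for AGGTCA found it in 7 of the 20 windows (35.0%), which belonged to 7 genes, Nr5a2, Nr0b1, Nr6a1, Rara, Rarg, Rxra and Rxrg, beside 16.3% of 32851 such windows genome-wide. The following stretches are those of the pair of genes with the largest differences between genotypes described below, which directly precede a start, and 1 half-site before Nr0b1. Capitals mark a matched motif.
Nr5a2, chr1:136888187-136888316, minus strand: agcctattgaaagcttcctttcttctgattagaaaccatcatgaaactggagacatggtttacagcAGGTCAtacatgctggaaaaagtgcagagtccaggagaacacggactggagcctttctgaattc
Esrrb, chr12:86468288-86468417, plus strand: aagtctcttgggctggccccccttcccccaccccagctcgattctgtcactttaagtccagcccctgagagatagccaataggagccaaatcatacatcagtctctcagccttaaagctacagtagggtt
Nr0b1, chrX:85235243-85235272, plus strand: tttgagctttcgAGGTCAtggccacacaca

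In the stretch before Nr5a2 the half-site began at position −64 from the start, and in that before Nr0b1 at −126, both outside any gene annotated in GENCODE M39. Nr5a2 has 2 windows, and the 1 printed was chosen because it holds the half-site, which the other does not. The stretch of Esrrb lies within an intron of its longer transcript and held none of the motifs searched. Those motifs were AGGTCA, its extended forms TCAAGGTCA (in 0.423% of all windows) and TCAAGGCCA (0.591%), the octamer ATGCAAAT that POU factors such as OCT6 and OCT4 recognise (1.74%), and direct repeats of loose half-sites (AGGTCA with G also allowed for the leading A and T also allowed for the G before TCA) spaced by 5 bases (0.0974%) or by 1 base (0.222%). An extended form contains a plain half-site or a close variant of it, so that matches of AGGTCA and TCAAGGTCA overlap. No window of the 10 genes held an octamer, an extended half-site or a direct repeat in these spellings, which says only that these letters do not stand in those windows.

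For comparison, 3 genes known to respond to these receptors are shown with 30 bases around their match: Pou5f1 with a half-site at −33, and the retinoid targets Rarb and Cyp26a1 with a DR5 at −53 and −32. Pou5f1 has 2 windows, and the 1 printed was chosen because it holds the half-site, which the other does not. Rarb and Cyp26a1 have 1 window each. The matches of Pou5f1 and Rarb lie within the annotated gene. That of Cyp26a1 ends directly before the annotated start of the gene and is read on the opposite strand.
Pou5f1, chr17:35816884-35816913, plus strand: gggcggggccagAGGTCAaggctagagggt
Rarb, chr14:5894227-5894256, plus strand: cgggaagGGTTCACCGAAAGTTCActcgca
Cyp26a1, chr19:37686217-37686246, plus strand: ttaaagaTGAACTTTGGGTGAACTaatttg

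The 6 libraries held between 10995505 and 14680930 counts, and their levels are given as CPM, each count relative to the TMM-scaled size of its library. Oct6 itself was counted at 161, 143 and 122 CPM in WT libraries 1, 2 and 3 and at 127, 141 and 128 CPM in KO libraries 1, 2 and 3, and the groups overlapped (Pou3f1, log2 fold change −0.10, SE 0.11, adjusted p = 0.574). A count over the whole gene does not show a small insertion, so that this level does not check the genotype labels. The EpiLC markers Pou5f1 (898 ± 60.0 CPM in WT, SD, n = 3), Dnmt3b and Fgf5 were abundant in both groups, and of the 6 markers chosen for EpiLCs Sox2, Otx2 and Fgf5 were called higher in KO. Since the cells were profiled in bulk, fewer cells of a type and less RNA per cell cannot be told apart.

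To ask which receptors differed between WT and KO EpiLCs, all genes were fitted together, and a gene was called when the edgeR adjusted p was below 0.1. Of the 8 receptors tested 3 were called (37.5%), beside 24.3% of all genes tested. Esrrb and Nr5a2 were higher in KO EpiLCs, where 11.8% of all genes were called higher, and Rarg was lower, where 12.5% of all genes were called lower. A log2 difference of at least 1 with a call was reached by Esrrb and Nr5a2, and by 6.21% of all genes. Over the 8 receptors the median log2 fold change was 0.03, beside 0.0014 over all genes tested. These shares describe the set and were not tested as one. The study had already reported Esrrb and Nr5a2 as higher in KO from these libraries, and the members were chosen with earlier results known. The share called is thus not independent of that choice.

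**Figure D1:**
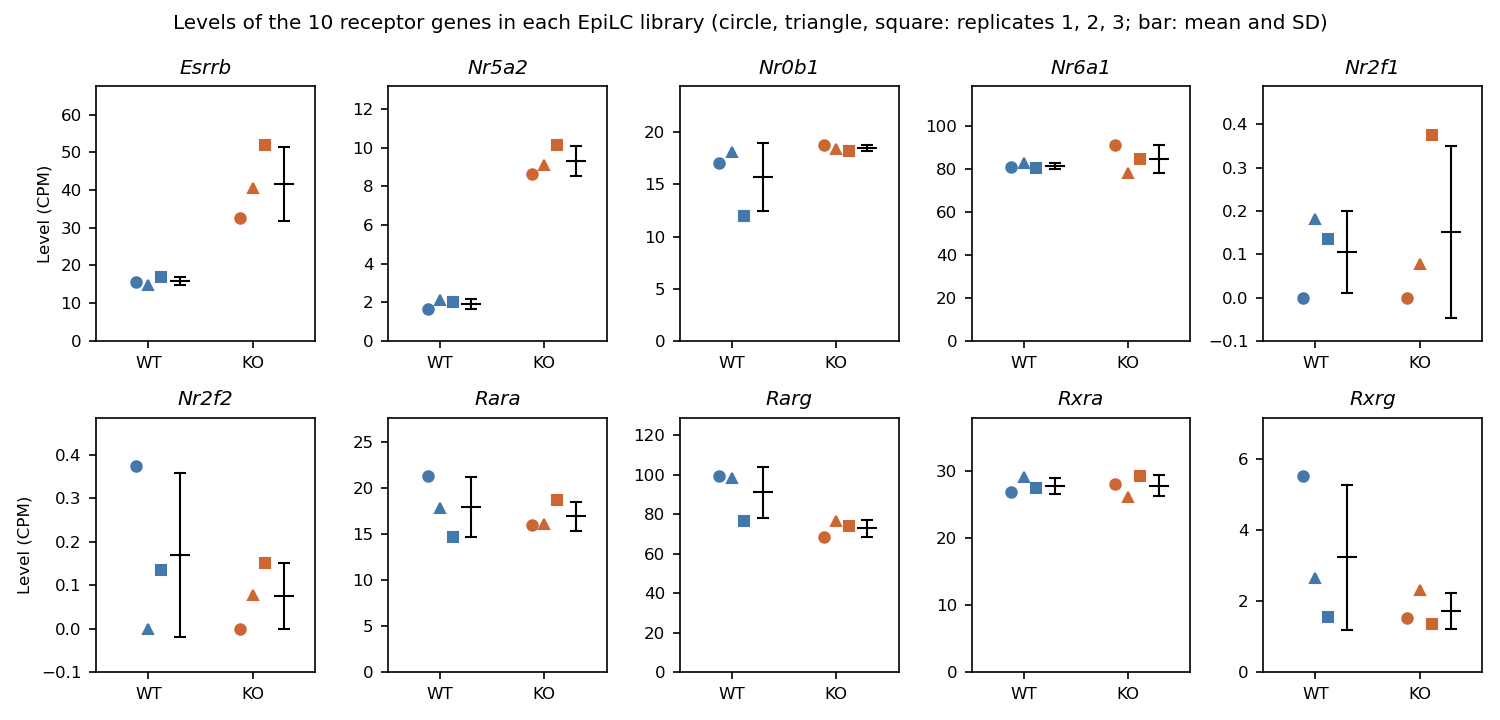
Level of each of the 10 receptor genes in CPM on a linear axis, a panel per gene, with points for the 3 WT and 3 KO EpiLC libraries (marker shape gives the replicate number) and bars for the mean and SD. Esrrb and Nr5a2 stand apart between the groups, Rarg nearly touches at 76.3 CPM, and Nr2f1 and Nr2f2 stay below 0.4 CPM in every library.

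Esrrb (ENSMUSG00000021255.18, chr12:86407887-86568409, plus strand) was counted at 15.7, 14.9 and 17.0 CPM in WT libraries 1, 2 and 3 and at 32.5, 40.5 and 52.0 CPM in KO libraries 1, 2 and 3. Every KO library lay above every WT library, and the KO libraries were also more spread, with means of 15.9 ± 1.06 CPM in WT and 41.7 ± 9.79 CPM in KO (SD, n = 3). The level in KO was 2.63 times that in WT, and the log2 fold change was 1.39 (SE 0.15, 95% interval 1.07 to 1.71, adjusted p = 5.3e-06). It rested on 625 counts in WT and 1617 in KO.

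Nr5a2 (ENSMUSG00000026398.15, chr1:136770303-136888186, minus strand), whose product LRH-1 binds phospholipids, was low in WT EpiLCs, with 1.64, 2.10 and 2.03 CPM, and stood at 8.67, 9.10 and 10.2 CPM in KO. The groups were well separated, with means of 1.92 ± 0.25 and 9.31 ± 0.76 CPM (SD, n = 3). The level in KO was 4.84 times that in WT, and the log2 fold change was 2.27 (SE 0.23, 95% interval 1.79 to 2.75, adjusted p = 1.9e-06), on 75 counts in WT and 360 in KO. Leaving out any 1 library kept both calls, with log2 fold changes from 1.20 to 1.54 for Esrrb and from 2.17 to 2.33 for Nr5a2. The genes tested within 5 Mb had median log2 fold changes of 0.05 around Esrrb and −0.07 around Nr5a2, so their neighbourhoods did not share the change.

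Nr0b1 (ENSMUSG00000025056.5, chrX:85235338-85239554, plus strand) was counted at 17.1, 18.1 and 12.0 CPM in WT and at 18.8, 18.4 and 18.2 CPM in KO. The KO libraries all lay above the WT libraries, but 2 of the WT libraries were within 2 CPM of them and WT 3 was low. The difference did not pass the test (log2 fold change 0.24, SE 0.16, 95% interval −0.10 to 0.58, adjusted p = 0.346), and it was 0.07 without WT 3. Esrrb, Nr5a2, Nr0b1 and, by a margin described below, Rarg were thus 4 of 8 receptors whose groups did not overlap, beside 33.7% of all genes tested.

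Nr6a1 (ENSMUSG00000063972.14, chr2:38613382-38817700, minus strand) stood at 80.6, 82.6 and 80.5 CPM in WT and at 91.1, 77.8 and 84.6 CPM in KO. The groups overlapped, and the log2 fold change was 0.06 (SE 0.10, adjusted p = 0.757), with a 95% interval from −0.15 to 0.26 that holds no difference as large as that of Esrrb or Nr5a2. Its known target Pou5f1 was slightly lower in KO EpiLCs, at 785, 825 and 751 CPM against 924, 940 and 829 CPM in WT, without passing the test (log2 fold change −0.19, adjusted p = 0.187). With a replicate block, which compares libraries of the same number, Pou5f1 did pass (−0.19, adjusted p = 0.0665).

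Nr2f1 (ENSMUSG00000069171.15, chr13:78337092-78348578, minus strand) and Nr2f2 (ENSMUSG00000030551.15, chr7:70001692-70016519, minus strand) were at the edge of detection and were not tested. Nr2f1 had 0, 2 and 2 counts in WT libraries 1, 2 and 3 and 0, 1 and 5 counts in KO libraries. Nr2f2 had 5, 0 and 2 counts in WT and 0, 1 and 2 counts in KO. A library with 0 counts allows up to 3 counts, that is 0.203 to 0.274 CPM at these depths, so that no difference between genotypes was detectable. Reads of antisense transcripts that share exon bases with these genes, A830082K12Rik and B130024G19Rik, could not be told apart without the strand, and they had 2 and 0 counts in all.

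Among the retinoic acid receptors, Rarg (ENSMUSG00000001288.16, chr15:102143373-102165952, minus strand) was counted at 99.1, 98.1 and 76.3 CPM in WT libraries 1, 2 and 3 and at 68.2, 76.3 and 73.9 CPM in KO libraries 1, 2 and 3. KO libraries were lower, but WT 3 and KO 2 were level at the precision printed. The means were 91.2 ± 12.9 CPM in WT and 72.8 ± 4.14 CPM in KO (SD, n = 3), a log2 fold change of −0.32 (SE 0.11, 95% interval −0.56 to −0.09, adjusted p = 0.0494). The call was lost when WT 1 (log2 fold change −0.26), WT 2 (−0.27), KO 1 (−0.28) or KO 3 (−0.33) was left out, with adjusted p-values up to 0.178, while the direction stayed the same.

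Rara (ENSMUSG00000037992.17, chr11:98818612-98865768, plus strand) stood at 21.3, 17.9 and 14.7 CPM in WT and at 16.0, 16.0 and 18.7 CPM in KO, and the groups overlapped. Its log2 fold change was −0.08 (SE 0.16, 95% interval −0.41 to 0.25, adjusted p = 0.785). Rarb, whose gene is itself a retinoid target through the DR5 shown above, had 14 counts in WT and 22 in KO and was not tested.

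Among the retinoid X receptors, Rxra (ENSMUSG00000015846.16, chr2:27566452-27653330, plus strand) differed least between the groups, with 26.9, 29.1 and 27.4 CPM in WT and 28.0, 26.2 and 29.2 CPM in KO. The log2 fold change was 0.00 (SE 0.12, adjusted p = 0.998) and its 95% interval ran from −0.25 to 0.25. Rxrb was counted at 46.2, 42.0 and 41.3 CPM in WT and at 32.5, 34.9 and 39.04 CPM in KO. All KO libraries lay below the WT libraries, and Rxrb was called (log2 fold change −0.28, SE 0.12, adjusted p = 0.0972), close to the threshold. The call was lost without WT 1, WT 2, KO 1 or KO 2, with log2 fold changes between −0.36 and −0.23 over all libraries left out in turn, and also with DESeq2 (adjusted p = 0.13) and with no filter on low counts, so that Rxrb was called in 6 of 12 alternative fits.

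Rxrg (ENSMUSG00000015843.11, chr1:167425673-167467193, plus strand) was low and spread, with 5.52, 2.65 and 1.56 CPM in WT and 1.54, 2.31 and 1.35 CPM in KO. WT 1 stood above the rest, and the other libraries overlapped. The log2 fold change was −0.90 (SE 0.40, 95% interval −1.74 to −0.05, adjusted p = 0.141), on 126 counts in WT and 67 in KO. It was −0.25 without WT 1, and −1.25 with a call (adjusted p = 0.0332) without WT 3. Rxrg was also called with a replicate block (log2 fold change −0.80, adjusted p = 0.0847) and without a filter on low counts (−0.90, adjusted p = 0.0559), so that its status turned on the fit and on 1 library.

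**Figure D2:**
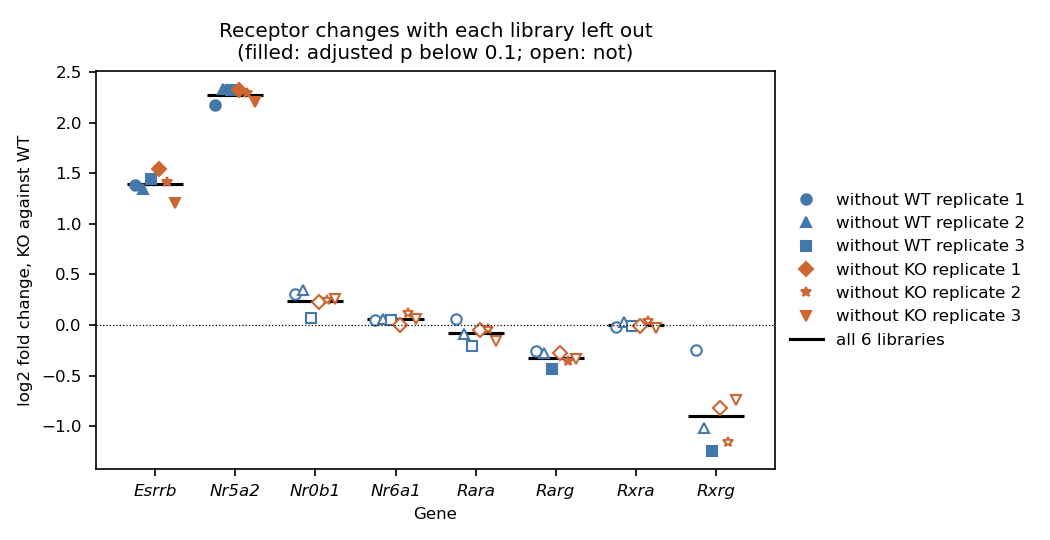
log2 fold change (KO against WT EpiLCs) of each receptor tested, with a line for the value from all 6 libraries and points for the values with each library left out, filled where the adjusted p was below 0.1 and open where it was not. Esrrb and Nr5a2 stay filled and far from 0, Rarg is filled in 2 of 6 cases, and Rxrg ranges from −1.25 to −0.25.

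To compare levels between genes, CPM were divided by the length of each gene's merged exons in kb. In WT EpiLCs the order of levels per kb was Rarg (19.7 ± 2.78 CPM per kb, SD, n = 3), Nr6a1 (7.41 ± 0.11), Nr0b1 (7.35 ± 1.53), Rxra (4.04 ± 0.17), Rara (2.85 ± 0.52), Esrrb (2.62 ± 0.17), Rxrg (0.64 ± 0.41) and Nr5a2 (0.22 ± 0.029), with Nr2f1 and Nr2f2 below 0.04 in every library. The ranges of Nr6a1 and Nr0b1, of Rara and Esrrb, and of Nr2f1 and Nr2f2 overlapped, and the other neighbours in the order did not. In KO EpiLCs Nr0b1 (8.64 ± 0.14 CPM per kb) came second by its mean. Esrrb (6.88 ± 1.62 CPM per kb) stood above Rxra (4.04 ± 0.22) and Rara (2.69 ± 0.25), next to Nr6a1 (7.71 ± 0.61), whose range it overlapped. The range of Esrrb (5.36 to 8.58) also overlapped that of Nr0b1 (8.51 to 8.79). Nr5a2 (1.08 ± 0.088 CPM per kb) stood above Rxrg (0.34 ± 0.10), the reverse of their order in WT, and Rarg led in both groups (15.7 ± 0.90 in KO). With the length of the canonical transcript instead, the first place stayed with Rarg, and Nr6a1 ranked above Nr0b1 in both groups. Rara changed places with Rxra in WT, where their ranges overlapped. In KO the ranges of Rxra and Rara overlapped as well, and so did those of Nr0b1 and Esrrb.

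The makeup of each retinoid receptor family was then described as shares of its summed CPM per kb, which do not depend on the scaling between libraries. Rarg made up 87.2 ± 0.95% of RAR transcripts in WT and 85.1 ± 1.37% in KO (SD, n = 3), Rara 12.6 ± 0.92% and 14.6 ± 1.13%, and Rarb 0.19 ± 0.046% and 0.38 ± 0.29%. Rxrb made up 68.1 ± 0.95% of RXR transcripts in WT and 65.1 ± 1.78% in KO, Rxra 27.6 ± 2.38% and 32.1 ± 1.85%, and Rxrg 4.28 ± 2.44% and 2.76 ± 0.89%. The share of Rxra was higher and that of Rxrb lower in each KO library than in each WT library, by means of 4.51 and −2.99 percentage points, and for both the two-sided exact permutation test gave p = 0.1, the smallest value that 3 against 3 libraries allow. For Rara and Rarg the exact permutation p was 0.2, for Rarb 0.4 and for Rxrg 0.5, and after adjustment over these 6 comparisons the values of the exact test ran from 0.3 to 0.5. This test cannot pass a threshold of 0.05 with 3 against 3 libraries. Within the 3 pairs of libraries with the same number, the shares of Rara and Rxra were higher and those of Rarg and Rxrb lower in KO in 3 of 3 pairs, with a paired exact permutation p of 0.25 for each, the smallest that 3 pairs allow. The share of Rarb was higher in 2 of 3 pairs and that of Rxrg lower in 2 of 3. The mean difference in the share of Rxrg was −1.52 percentage points with all libraries and −0.17 without WT 1, −2.55 without WT 3, and that of Rarb was 0.19 with all libraries and 0.07 without KO 1, 0.35 without KO 2.

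**Figure D3:**
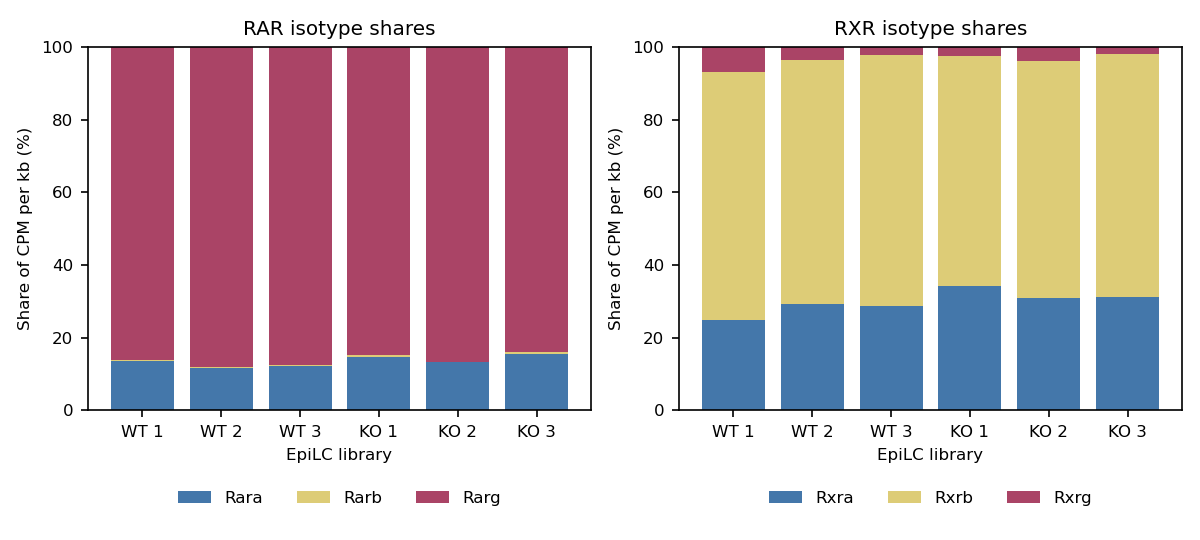
Share of each isotype, in percent, in the summed CPM per kb of exon of the RAR genes (left) and of the RXR genes (right), as a stacked bar for each WT and KO EpiLC library. Rarg takes between 83.9% and 88.1% of the RAR sum, and Rxrb between 63.2% and 69.0% of the RXR sum.

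To place these genes among their relatives, the other 39 nuclear receptors of the mouse were taken from the same fit. Of these 37 had a count, 19 were tested and 7 were called (36.8%, beside 24.3% of all genes), 3 higher and 4 lower in KO EpiLCs, with a median log2 fold change of −0.18. None of the 7 reached a log2 difference of 1, unlike Esrrb and Nr5a2. The higher genes were the corticosteroid receptors Nr3c1 (glucocorticoid receptor, 65.7 ± 6.52 CPM in WT and 85.5 ± 8.68 CPM in KO, log2 fold change 0.38, adjusted p = 0.0191) and Nr3c2 (mineralocorticoid receptor, 0.86, adjusted p = 0.0584) and the clock repressor Nr1d2 (REV-ERBβ, 0.31, adjusted p = 0.0967).

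The lower genes were Nr2c2 (TR4, 99.7 ± 6.999 CPM in WT and 69.9 ± 4.08 CPM in KO, log2 fold change −0.51, adjusted p = 0.00114), the thyroid hormone receptor Thra (−0.52, adjusted p = 0.0443), the COUP-TF relative Nr2f6 (−0.28, adjusted p = 0.0818) and Rxrb. Nr2c2 lies on chromosome 6, where the genes within 5 Mb of it had a median log2 fold change of −0.55, so its difference was no larger than that of its neighbourhood. Thra overlaps the oppositely transcribed Nr1d1 (−0.32, adjusted p = 0.672), and without the strand their shared reads cannot be told apart. With a replicate block 9 of the 19 were called, the additional ones being Ppard (0.68, adjusted p = 0.0611) and Esrra (−0.32, adjusted p = 0.0617). DESeq2 called 4, and leaving out 1 library gave 3 without WT 2, 2 without KO 1, 4 without KO 2 and 4 without KO 3, Nr2c2 being called in all of the alternative fits. Nr3c1 lost its call without KO 1 (adjusted p = 0.125), whereas Nr1d2 was called in 4 of 12 alternative fits, Nr3c2 in 7, Nr2f6 in 8 and Thra in 9.

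**Figure D4:**
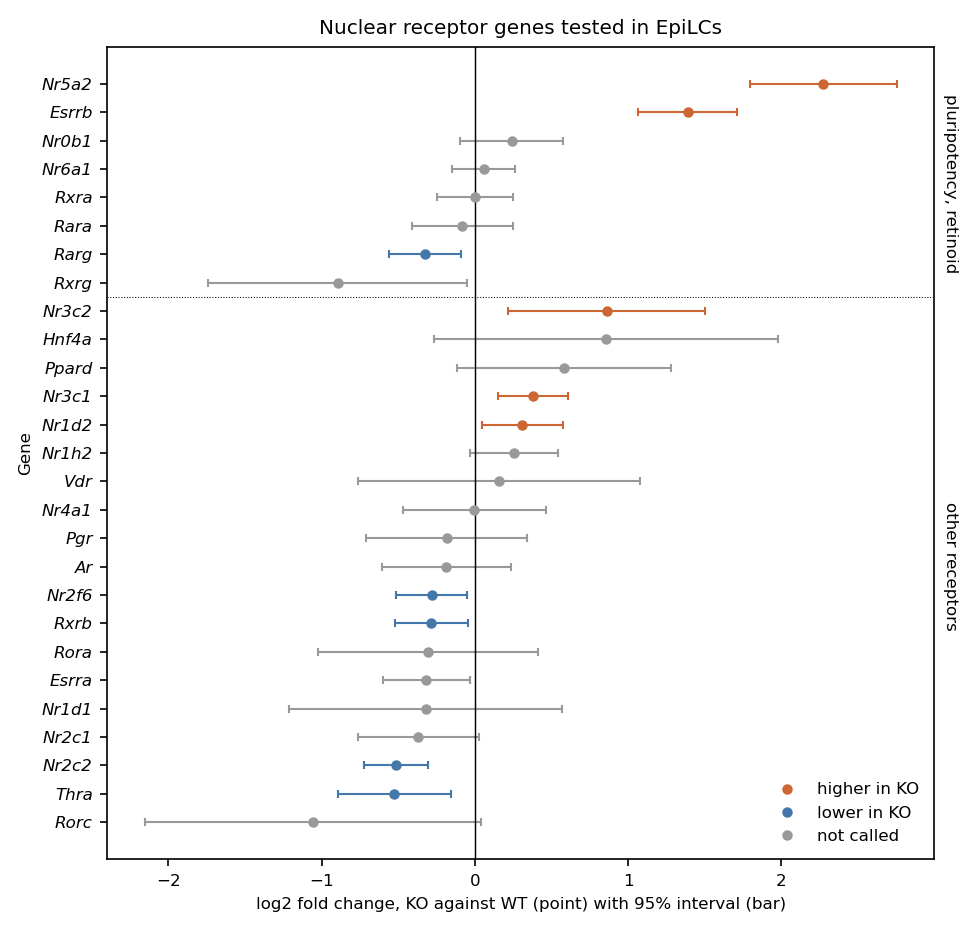
log2 fold change (KO against WT EpiLCs) with its 95% interval for the 8 receptors described here that were tested (above the dotted line) and for the 19 other nuclear receptors tested (below it), coloured by whether the edgeR adjusted p was below 0.1 and in which direction. Nr5a2 at 2.27 and Esrrb at 1.39 lie to the right of all other receptors, and no called gene among the other receptors goes beyond −0.52 or 0.86.

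Retinoid signalling runs from retinol through dehydrogenases to retinoic acid, which cellular binding proteins carry to RAR and RXR, and CYP26 enzymes degrade it. A list of 25 genes of this pathway and of receptor cofactors had 18 tested and 8 called (44.4%, beside 24.3% of all genes), 4 higher and 4 lower, with a median log2 fold change of 0.17. Among the genes of synthesis and transport, Aldh1a2, the main retinoic acid synthase of the embryo, was higher in KO (23 counts in WT, 58 in KO, log2 fold change 1.33, adjusted p = 0.0964). Lower in KO were Dhrs3, which returns retinal to retinol (−0.81, adjusted p = 0.0614), and Crabp2, which delivers retinoic acid to RARs (18.1 ± 0.51 and 10.7 ± 2.12 CPM, −0.75, adjusted p = 0.00291). Crabp2 stood at 17.8, 17.8 and 18.7 CPM in WT and 8.51, 12.7 and 10.9 CPM in KO, and the groups were separate.

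Among known retinoid targets, Stra8, known for its induction by retinoic acid in germ cells, fell from 3.43, 1.46 and 2.30 CPM in WT to 0.97, 0.39 and 0.60 CPM in KO (log2 fold change −1.88, SE 0.44, adjusted p = 0.00485). It lies on chromosome 6, where the genes within 5 Mb had a median log2 fold change of −0.51, and it fell by more than that. Cyp26a1, the degrading enzyme with the DR5 shown above, had 30 counts in WT and 41 in KO and did not pass the test (log2 fold change 0.44, SE 0.63, adjusted p = 0.707), whereas Meis2 was called higher (1.07, adjusted p = 0.0924). Meis2 rested on 36 counts in WT and 77 in KO, its groups overlapped, and DESeq2 did not call it (adjusted p = 0.203). These targets thus did not move one way in the main fit, with Stra8 lower, Meis2 higher and Cyp26a1 not called.

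Among the cofactors, Nrip1 (RIP140), a ligand-dependent corepressor of nuclear receptors, was called, with 15.5, 9.86 and 14.5 CPM in WT and 26.9, 16.8 and 31.4 CPM in KO (log2 fold change 0.90, adjusted p = 0.00345). Nrip1 lies on chromosome 16, where the 9 genes tested within 5 Mb had a median log2 fold change of 0.69. Over the whole of chromosome 16, 310 of 471 genes tested were called, and the median was 0.55. The 95% interval of Nrip1, from 0.48 to 1.33, holds both medians. The difference of Nrip1 was thus not set apart from that of its chromosome. The corepressor Ncor1 and the coactivators Ncoa1, Ncoa2 and Ncoa3 were not called, with log2 fold changes between 0.17 and 0.27, and Ncor1 passed with a replicate block (0.21, adjusted p = 0.0664). Crabp2 and Nrip1 were called in all alternative fits, and Stra8 in every one that tested it. DESeq2 called 5 genes of the list, and leaving out 1 library gave 5 without WT 1, 4 without WT 3, 5 without KO 2 and 5 without KO 3. Aldh1a2 was called in 4 of 11 alternative fits that tested it and Meis2 in 5 of 11, and Dhrs3 in 8 of 12.

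The partners of the orphan receptors in pluripotent cells moved one way where they were called in the main fit. All 13 transcription factors and related genes of this list were tested, and 6 were called (46.2%, beside 24.3% of all genes), all higher in KO EpiLCs, with a median log2 fold change of 0.42. Nanog stood at 35.2, 40.8 and 42.3 CPM in WT and at 60.0, 66.6 and 72.7 CPM in KO (log2 fold change 0.75, adjusted p = 0.000111), and Klf2 at 4.33, 3.01 and 3.65 against 11.4, 9.64 and 15.2 CPM (1.71, adjusted p = 2.5e-05). Prdm14, a repressor of FGF signalling, rose the most, from 20 counts in WT to 124 in KO (2.62, adjusted p = 0.0011). Sox2 (0.42, adjusted p = 0.0283), Zfp42, also known as Rex1 (0.54, adjusted p = 0.000902), and Tcl1, a known Esrrb target in mESCs (0.92, adjusted p = 0.022), were also higher. Klf4, Klf5, Tbx3, Tfcp2l1, Sall4, Dppa3 and Pou5f1 were not called. With a replicate block Klf5 (−0.35, adjusted p = 0.0952) and Pou5f1 (−0.19, adjusted p = 0.0665) did pass, both lower in KO. Nanog, Klf2 and Zfp42 were called in all 12 alternative fits and Prdm14 in all 11 that tested it, whereas Tcl1 lost its call without KO 2 (adjusted p = 0.172) and Sox2 without WT 1 or KO 3 (adjusted p up to 0.206). This list overlaps genes that the study examined in the same cells and is not independent of it. For Rex1 (Zfp42) the study describes no difference between WT and KO EpiLCs at 48 h, unlike the call here. Its list of differing genes asked for a log2 fold change of at least 1, which the 0.54 of Zfp42 does not reach.

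**Figure D5:**
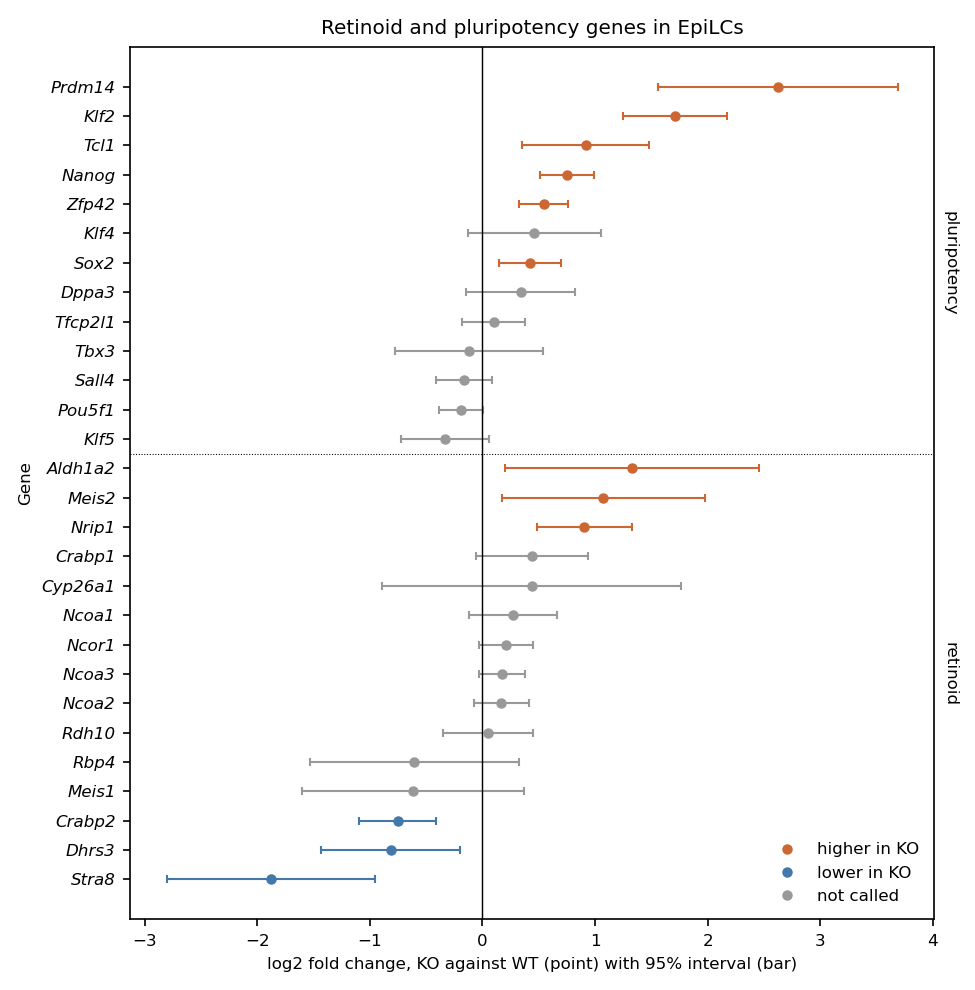
log2 fold change (KO against WT EpiLCs) with its 95% interval for the 13 pluripotency genes (above the dotted line) and 15 retinoid pathway and cofactor genes (below it), coloured by whether the edgeR adjusted p was below 0.1 and in which direction. All 6 coloured pluripotency genes lie above 0, from 0.42 to 2.62, while the coloured retinoid genes split into 3 above and 3 below, from −1.88 to 1.33.

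Markers of other cell states moved with genotype beside these results. Of the naïve markers Nanog and Zfp42 were higher and Klf4, Tbx3 and Tfcp2l1 were not called, and the summed level of these 5 genes ran from 189 to 202 CPM in WT and from 259 to 322 CPM in KO. Of 5 neural markers, 3 were tested, and Sox1 (−1.78, adjusted p = 0.00733) and Nes (−1.41, adjusted p = 6.7e-07) were lower. The other one tested, Sox3, was not called, and its difference went the other way (0.28, adjusted p = 0.497). The sums of the 5 neural markers ran from 45.8 to 53.4 CPM in WT and from 23.9 to 29.0 CPM in KO. Nes was the largest part of these sums, with means of 38.6 CPM in WT and 14.5 CPM in KO. The defining marker Pax6 had 24 counts in WT and 20 in KO. Of 4 endoderm markers Gata6 was higher (1.35, adjusted p = 0.0121) and the sums ran from 2.10 to 3.83 and from 3.24 to 9.48 CPM. Of 4 mesoderm markers Eomes was higher (sums from 5.88 to 6.49 and from 8.79 to 11.7 CPM) while T and Mixl1 had at most 14 counts per group, and of 3 trophoblast markers Krt7 was lower (6.12 to 8.21 and 3.08 to 4.13 CPM), with Cdx2 at 15 and 3 counts. The part of such shifts in the differences of the receptors and retinoid genes was not tested.

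The pattern over the 6 libraries, which differ in genotype and depth, was compared between each receptor and 13227 genes with an average log2 CPM of at least 1. As a description, the gene with the highest Pearson correlation of log2 CPM with each receptor was sought among these genes. For Esrrb it was Hscb (r = 0.998, log2 fold change 0.98) and for Nr5a2 Morc1 (r = 0.9996, log2 fold change 1.45), a gene of chromosome 16. For Nr0b1 it was Cope, for Nr6a1 Gm3470, for Rara Arhgef1, for Rarg Zftraf1, for Rxra Rtf1 and for Rxrg Atpaf2, with r from 0.989 to 0.996 and none of these genes called. Each r is the highest of 13227 over only 6 libraries. Every receptor tested had a gene at 0.989 or above, so a high r sets none of them apart.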

How the data were processed

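RNA-seq was performed on 3 WT and 3 Oct6 KO EpiLC libraries, prepared from ribosome-depleted total RNA by a strand-specific protocol and sequenced paired-end. The authors trimmed the reads, mapped them to GRCm39 with STAR and deposited raw counts per gene. Tool versions, the gene annotation, the strand setting and the handling of multi-mapping reads are not given in the sources used here. The submitters' processing notes also name FastQC and DESeq2.

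Of 55416 identifiers 54749 matched GENCODE M39, which gave symbols, positions and exon lengths, and 667 did not. The main test was edgeR 4.0.16 in R 4.3.3 (quasi-likelihood, TMM, filterByExpr with a minimum of 10 counts, genotype as the only term, Benjamini-Hochberg over 15746 genes), and a gene was called at an adjusted p below 0.1. Standard errors came from the F statistic and 95% intervals from its degrees of freedom. The biological coefficient of variation was 11.7%, which together with library totals from 10995505 to 14680930 sets the precision. The script was tested on simulated data. Floors of 3 counts cover counting error only.

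The series' design text calls the replicates paired. Deviations from the group means correlated at 0.276, 0.350 and 0.124 between libraries of the same number, and from −0.263 to −0.0226 between different numbers, over 11448 genes. No pair of libraries agreed within sampling noise. The numbers were therefore taken to pair the samples, and the fit with a replicate block is an alternative beside DESeq2 1.42.0, RLE size factors, library totals, an unfiltered table, a floor of 10 counts in all libraries, a threshold of 0.05 and the omission of single libraries.

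The members and lists were chosen with earlier results of these data known. Named were every member, each list gene with an adjusted p below 0.1, Rarb and Rxrb, and for each member tested the gene most correlated with it. Some genes of the retinoid list are counted but not reported here by name. Other genes named with values (Pou3f1, Pou5f1, Cyp26a1, Nr1d1, the cofactors, genes called under a replicate block and markers) were chosen after their values were seen.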

Additional observations from a re-analysis of the deposited data

How the results depend on the processing

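Esrrb and Nr5a2 were called higher in each of the 13 alternatives tried. The number of receptors called lower was 1 in the main analysis, 2 with no filter on low counts, 2 with a replicate block, and from 0 to 2 with each library left out. The number of other nuclear receptors called was 7, against 4 with DESeq2, 3 at an adjusted p below 0.05, and from 2 to 9 with each library left out. The number of retinoid genes called was 8, against 5 with DESeq2, 4 with at least 10 counts in every library, which tests fewer genes, 5 at an adjusted p below 0.05, and from 4 to 8 with each library left out. Beside Rxrg, Ppard, Esrra, Ncor1, Pou5f1 and Klf5, the replicate block changed no call of a gene on these lists, while the genes called in all rose from 3833 to 4764. For the other lost calls the cause was not tested. No result reversed among those called. The differences in isotype shares kept their direction under each alternative, including canonical transcript lengths, which were chosen after seeing the data together with the paired exact test, but that of Rxrg fell to −0.17 percentage points without WT 1, from −1.52, and that of Rarb ran from 0.07 to 0.35 with each library left out. With 3 libraries per group, Nr2f1, Nr2f2 and Rarb, which had at most 22 counts in either group and were not tested, could not be compared at this depth.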
